A study of Mus musculus with 8 samples.

Results

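Chemokines and their receptors, 52 genes of the 20736 rows measured, were examined in cultured macrophages with and without a load of modified lipoprotein. A gene was taken if the single symbol of its probe set began with Ccl, Ccr, Cxcl, Cxcr, Cx3cl, Cx3cr, Xcl or Xcr followed by a number. These were 34 ligands (19 CC, 13 CXC, and Cx3cl1 and Xcl1) and 18 receptors (10 CC and 8 others). No member came from a probe set shared between genes (0 of 52). The probe sets of the Ccl21 and Ccl27 genes, 4 and 3 in number, also list genes without a chemokine name and were left out under this rule.

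The cells were macrophages that gather in the peritoneum of C57BL/6J mice after thioglycollate, an irritant broth, taken 5 days after its injection and grown in DMEM with 10% serum. One group had no addition (unloaded, 4 arrays). The other had acetylated low-density lipoprotein (acLDL, 4 arrays), which macrophages take up through scavenger receptors until they are laden with cholesterol. The sample protocols give 3 days at 20 µg/mL, and the series description 2 days at 50 µg/mL, so dose and time are unsettled. The series description calls the arrays of a condition independent biological replicates, but which mice fed which culture is not stated. The p-values therefore measure the spread between these arrays.

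Chemokines are small secreted proteins that steer the movement of leukocytes. They are classed by the spacing of their first cysteines (CC, CXC, CX3C and C), and their receptors are G protein-coupled receptors of the cell surface. Most receptors bind several ligands and most ligands bind several receptors. Macrophages are both a source and a target of these signals, which bring monocytes into inflamed tissue and arterial plaques.

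Values are log2 expression levels, so a difference of 1 is a doubling. Background was gauged from 1027 olfactory receptor genes, a family of the nose, whose mean levels had a 95th percentile of 6.12. Of the 52 members, 27 exceeded this level in at least 1 group and 25 in neither, and changes of dim genes are understated on such arrays. Levels of different genes rest on different probes and are not compared here. Over all rows, arrays of the same group correlated at 0.994 to 0.997 (Pearson), and arrays of different groups at 0.988 to 0.991. In bulk RNA, fewer cells of a type and less RNA per cell cannot be told apart.

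The comparison asked which of these genes macrophages express at another level after acLDL. Cxcr4, the receptor for Cxcl12, was lower by 2.01-fold, the chemokine genes Ccl5, Ccl9, Ccl6 and Ccl2 rose, and Cxcl13 and Cxcl16 fell. In all, 7 members rose, 7 fell and 38 did not pass (limma adjusted p under 0.05 over all 20736 rows). The 14 calls make up 26.9% of the members, against 23.9% of all rows, so the number of calls was near the background. Of all rows 12.9% rose and 11.1% fell, and the 7 members in each direction are 13.5% of 52. When arrays were centred on the median of all deposited probe sets, a setting chosen after seeing the data, 65.3% in place of 53.7% of the calls over all rows were rises, and the members were split into 9 rises and 6 falls.

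Larger changes took up more of the members than of all rows. A change of at least 1.5-fold was called in 6 members (11.5%), Ccl5, Ccl9, Ccl6, Cxcl13, Cxcl16 and Cxcr4, against 2.12% of all rows. In 13 members the 4 acLDL arrays lay wholly above or below the 4 unloaded arrays (25.0%), against 26.1% of all rows. The median difference was -0.10 over the members, the 25 dim ones included, and -0.01 over all rows. Where only rows above background were fitted the median was 0.04 over 27 members and 0.02 over all rows. By class, 12 of 34 ligands (35.3%) and 2 of 18 receptors (11.1%) passed, and whether these shares differ was not tested. Above background were 21 ligands, of which 10 passed, and 6 receptors, of which 2 passed. Of all 12450 rows above background 4259 passed. Of the 14 calls, 12 were in genes above the background level, against 4259 of the 4965 calls over all rows.

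**Figure D1:**
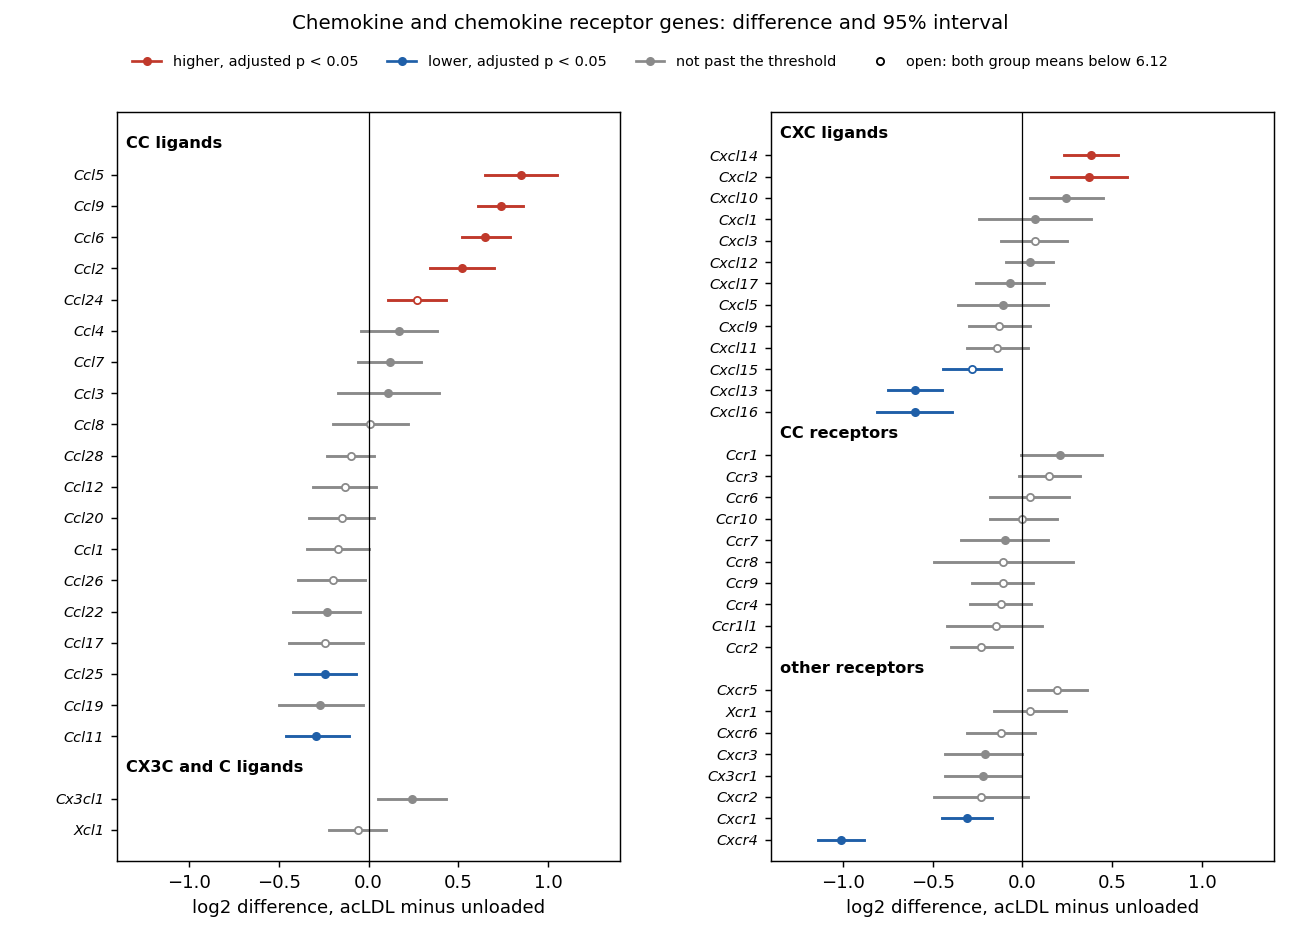
Log2 difference (acLDL minus unloaded, horizontal axis) of each of the 52 genes with its 95% interval from limma, by class. Red and blue mark genes past the threshold, grey the rest, and open circles genes whose group means both lie below 6.12. Cxcr4 lies farthest to the left at -1.01 and Ccl5 farthest to the right at 0.85.

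Among CC ligands the largest rises were in 3 genes that follow one another on the chromosome. Ccl5, which attracts T cells and monocytes and is known as RANTES, stood at 7.73, 7.70, 7.49 and 7.65 in unloaded arrays 1 to 4 and at 8.39, 8.42, 8.37 and 8.78 in acLDL arrays 1 to 4. All acLDL arrays were higher than all unloaded arrays, and acLDL array 4 was the highest. The gene was 1.80-fold higher (95% interval 1.57 to 2.07, limma adjusted p = 3.06e-05). Without acLDL array 4 the log2 difference was 0.75 in place of 0.85.

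Ccl9, a chemokine of rodents made by macrophages and other myeloid cells, stood at 10.41, 10.45, 10.51 and 10.46 in unloaded arrays. It stood at 11.23, 11.14, 11.16 and 11.25 in acLDL arrays. The arrays of each group lay close together and the groups far apart, a rise of 1.67-fold (95% interval 1.53 to 1.82, limma adjusted p = 2.44e-06).

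Ccl6, its close relative in sequence and also a ligand of Ccr1, had 11.20, 11.09, 11.01 and 11.13 in unloaded arrays. In acLDL arrays it had 11.73, 11.70, 11.80 and 11.80. Here too the groups did not overlap, and the rise was 1.57-fold (95% interval 1.43 to 1.73, limma adjusted p = 1.08e-05).

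The run of neighbours goes on with Ccl3 and Ccl4, which encode the macrophage inflammatory proteins 1 alpha and beta. Ccl3 ranged from 10.36 to 11.05 in unloaded arrays and from 10.56 to 10.94 in acLDL arrays. The groups overlapped, and the log2 difference was 0.11 (95% interval -0.17 to 0.39, limma adjusted p = 0.590). Ccl4 stood at 7.43 ± 0.22 and 7.61 ± 0.11 (log2, SD, n = 4), a difference of 0.17 (95% interval -0.04 to 0.38, limma adjusted p = 0.243). For both genes the upper end of the interval lay below the lower end of the interval of each of the other genes in the run, 0.52 for Ccl6. The differences between neighbours were not tested against each other.

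The 250 bases before the RefSeq start of the middle genes of this run are shown because Ccl9 and Ccl6 rose while Ccl3, next to them, did not pass. They come from the RefSeq promoter table (build GRCm38.p6) and are written 5′ to 3′ on the gene's strand, the minus strand for all 3. Ccl9 covers chr11:83578637-83578886, Ccl6 chr11:83593088-83593337 and Ccl3 chr11:83649379-83649628. Capitals mark matches on either strand to a TATA box (TATAAA), an AP-1 site (TGANTCA), an interferon-stimulated response element (GAAANNGAAA), a PU box (GAGGAA) or the NF-kB consensus.
Ccl9: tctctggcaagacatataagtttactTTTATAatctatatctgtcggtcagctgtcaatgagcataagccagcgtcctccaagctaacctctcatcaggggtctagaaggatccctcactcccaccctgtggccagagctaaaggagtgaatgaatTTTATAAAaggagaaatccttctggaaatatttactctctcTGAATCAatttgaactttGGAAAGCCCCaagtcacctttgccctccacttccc
Ccl6: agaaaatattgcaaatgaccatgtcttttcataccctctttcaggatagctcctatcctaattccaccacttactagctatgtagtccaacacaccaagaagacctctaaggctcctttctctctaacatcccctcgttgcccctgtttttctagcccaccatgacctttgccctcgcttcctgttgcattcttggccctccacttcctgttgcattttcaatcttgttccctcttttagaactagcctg
Ccl3: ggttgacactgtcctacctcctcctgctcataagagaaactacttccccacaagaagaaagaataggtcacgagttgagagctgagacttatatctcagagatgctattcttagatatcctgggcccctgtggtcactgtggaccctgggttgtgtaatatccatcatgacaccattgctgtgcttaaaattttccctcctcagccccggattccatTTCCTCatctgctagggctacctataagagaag

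The Ccl9 window held TATA box letters, overlapping on the 2 strands, 94 to 87 bases before the start and again, on the other strand only, 224 to 219 bases before it. It also held an AP-1 match at 53 to 47 and an NF-kB match at 35 to 26 bases before the start. The Ccl3 window held a PU box match at 33 to 28 bases before the start, and the Ccl6 window held 0 matches to these letters. The longest run of bases that the Ccl9 and Ccl6 windows share is 13 bases, GCCCTCCACTTCC, which begins 14 bases before the start in Ccl9 and 55 before it in Ccl6. Each shared at most 8 bases in a row with the Ccl3 window. A match is a description of letters and says nothing of a factor's binding.

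The promoter table held 38 of the 52 members, with 40 windows. The NF-kB consensus was found in 10 of these 40 windows (25.0%), against 7.3% of all 32851 windows of the same length. Those of Ccl9 and Cxcl2, which rose, and of Cxcl1, Cxcl3, Cxcl10, Ccl1, Ccl20, Ccr1, Ccr3 and Ccr6, which did not pass, held it. TATA box letters were in 30.0% of member windows against 12.4% of all, PU box letters in 27.5% against 23.3%, AP-1 letters in 10.0% against 6.7% and the response element in 7.5% against 3.0%. The windows of the last were those of Ccl19, Cxcl10 and Cxcl14.

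**Figure D2:**
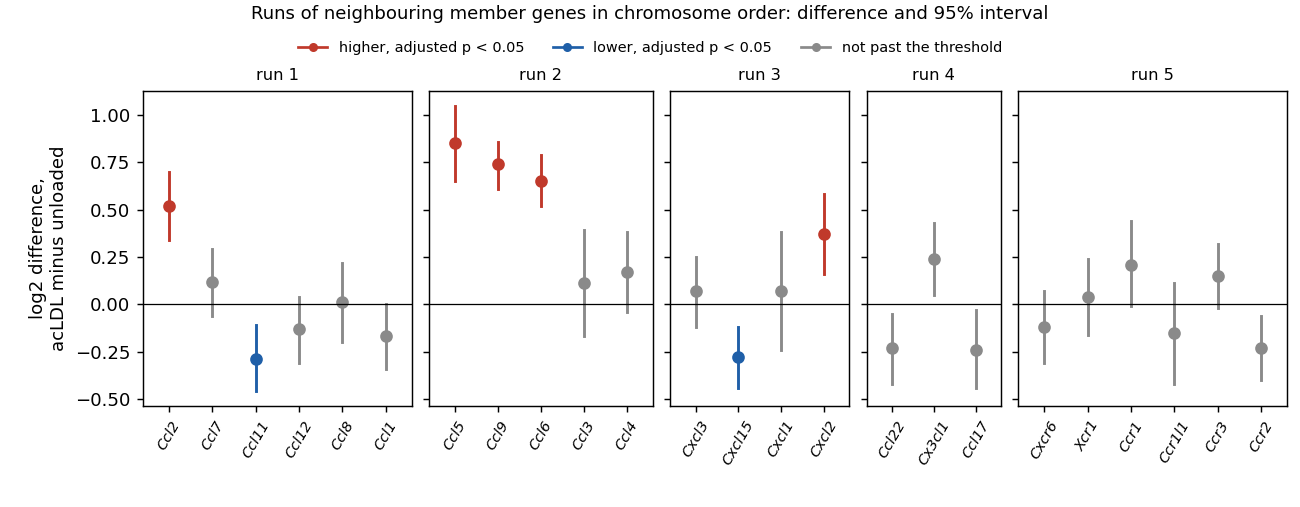
Log2 difference with 95% interval of members that follow one another among protein-coding genes, in the order of the RefSeq gene table, for the 5 runs of at least 3 genes. In run 2 Ccl5, Ccl9 and Ccl6 lie between 0.65 and 0.85 and Ccl3 and Ccl4 between 0.11 and 0.17, and in run 1 Ccl2 lies apart at 0.52.

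In a second run, of 6 genes, Ccl2 rose. Ccl2, the monocyte chemoattractant that binds Ccr2, stood at 7.26, 7.10, 7.34 and 7.49 in unloaded arrays and at 7.69, 7.91, 7.88 and 7.78 in acLDL arrays. The lowest acLDL array was above the highest unloaded array, a rise of 1.43-fold (95% interval 1.26 to 1.62, limma adjusted p = 0.000600). Its neighbours did otherwise. Ccl7, the other main ligand of Ccr2, stood at 6.91 ± 0.13 and 7.03 ± 0.12 (log2, SD, n = 4), a difference of 0.12 (95% interval -0.06 to 0.29, limma adjusted p = 0.332).

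Ccl11, the eosinophil attractant eotaxin, stood at 6.29, 6.43, 6.61 and 6.28 in unloaded arrays and at 6.02, 6.17, 6.21 and 6.05 in acLDL arrays. The groups did not overlap, and the gene was 1.22-fold lower, by 0.29 on the log2 scale (limma adjusted p = 0.0207). Its acLDL mean lies just below the background level of 6.12. It missed the threshold when unloaded array 3 was dropped (adjusted p = 0.0503), and likewise acLDL array 1 (0.0676) or acLDL array 4 (0.0593). With unloaded arrays 2 and 3 both dropped the difference was -0.17 (adjusted p = 0.135). Ccl12, Ccl8 and Ccl1, the rest of this run, were below the background level and differed by -0.13, 0.01 and -0.17. In all, 30 members lay in 8 runs of at least 2 neighbours, and 9 of these 30 passed. Of all 52 members 14 passed (26.9%), and of all rows 23.9%.

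Weaker calls were made in 2 other CC ligands. Ccl24, a further ligand of the eosinophil receptor Ccr3, rose by 0.27, from 5.41 ± 0.13 to 5.68 ± 0.07 (log2, SD, n = 4, limma adjusted p = 0.0161), at levels below background. Ccl24 missed the threshold when unloaded array 4 (adjusted p = 0.0526) or acLDL array 1 (0.0542) was dropped, and when unloaded arrays 1 and 4 both were (0.120). Ccl25, the gut and thymus ligand of Ccr9, stood at 6.65, 6.80, 6.78 and 6.90 in unloaded arrays and at 6.37, 6.55, 6.70 and 6.55 in acLDL arrays. The groups overlapped, and the fall was 1.18-fold, 0.24 on the log2 scale (limma adjusted p = 0.0424). That call was lost on leaving out any one of unloaded arrays 2, 3 and 4 (adjusted p = 0.0828, 0.0673 and 0.119) or of acLDL arrays 1, 2 and 4 (0.135, 0.0810 and 0.0786). Its other probe set, dimmer with a mean of 5.93, differed by -0.22.

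CC ligands above the background level in at least 1 group that did not pass were Ccl3, Ccl4, Ccl7, Ccl19 and Ccl22. Ccl19, a ligand of Ccr7 on dendritic and T cells, stood at 7.54 ± 0.26 and 7.27 ± 0.12 (log2, SD, n = 4), a difference of -0.27 (95% interval -0.50 to -0.03, limma adjusted p = 0.0980). It is measured by 5 probe sets with differences of -0.27 to -0.22, and since mice carry near-identical copies of this gene its value is uncertain. Ccl22, a ligand of Ccr4 made by macrophages and dendritic cells, stood at 6.27 ± 0.15 and 6.03 ± 0.13 (log2, SD, n = 4, limma adjusted p = 0.0652), and it passed in 7 of the other settings. The 7 dim CC ligands that did not pass had group means from 4.67 (Ccl8) to 6.08 (Ccl20).

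CXC ligands went both ways. Cxcl13, the B cell attractant that resident peritoneal macrophages are known to make, stood at 10.49, 10.41, 10.45 and 10.62 in unloaded arrays. In acLDL arrays it stood at 9.88, 9.88, 9.79 and 10.02. The groups did not overlap, and the gene was 1.52-fold lower (95% interval 1.37 to 1.68, limma adjusted p = 4.91e-05). Cxcl13 passed in every other setting, with log2 differences from -0.66 to -0.54. It fell by less than 1.5-fold without unloaded array 4, without acLDL array 3 and without unloaded arrays 1 and 4.

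Cxcl16, a membrane-bound chemokine that also takes up oxidised lipoprotein as a scavenger receptor, stood at 9.52, 8.96, 9.15 and 9.16 in unloaded arrays. It stood at 8.53, 8.64, 8.62 and 8.61 in acLDL arrays. Unloaded array 1 was the highest, and every unloaded array lay above every acLDL array. The fall was 1.52-fold (95% interval 1.31 to 1.75, limma adjusted p = 0.000546). Cxcl16 passed in every other setting, with log2 differences from -0.74 to -0.46. It fell by less than 1.5-fold with array weights, without unloaded array 1 or acLDL array 1, and without unloaded arrays 1 and 4. Its protein is shed from the cell surface by the protease of Adam10, which fell by 0.31 on the log2 scale.

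**Figure D3:**
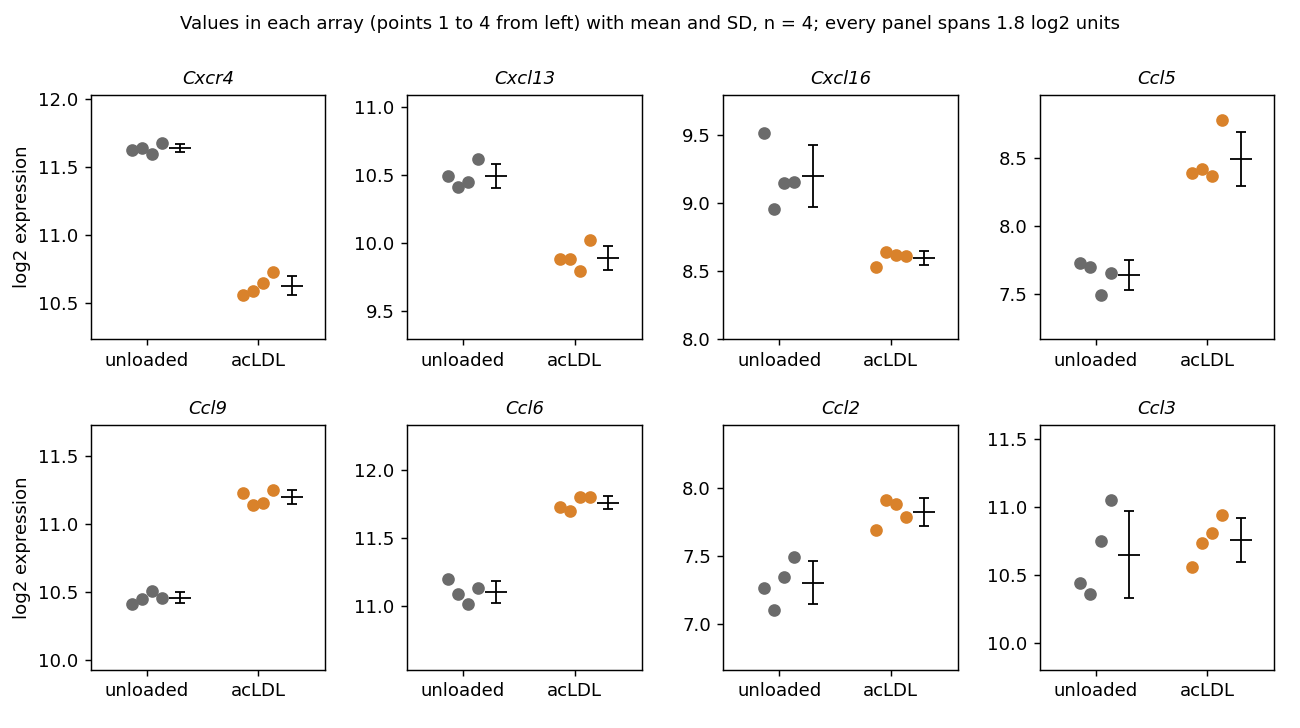
Log2 expression in each array for the members changed by at least 1.5-fold, with Ccl2 and Ccl3. Points are arrays 1 to 4 from left to right (grey unloaded, orange acLDL), bars are mean and SD (n = 4), and each panel spans 1.8 log2 units. The groups are apart in every panel other than that of Ccl3.

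Cxcl14, a chemokine of epithelia and connective tissue, rose by 0.38 (1.30-fold). It stood at 7.10, 6.99, 7.04 and 7.04 in unloaded arrays and at 7.47, 7.53, 7.45 and 7.24 in acLDL arrays, which did not overlap (limma adjusted p = 0.00162). Cxcl2, a neutrophil attractant that binds Cxcr2, rose by 0.37 (1.29-fold, limma adjusted p = 0.0142). Its values were 5.98, 5.92, 5.97 and 6.19 in unloaded and 6.23, 6.34, 6.27 and 6.69 in acLDL arrays, so that only its acLDL mean exceeded the background level. Without unloaded arrays 2 and 3 together the adjusted p of Cxcl2 was 0.0977.

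Cxcl1, Cxcl3 and Cxcl5, which also bind Cxcr2, did not pass. Cxcl1 stood at 6.88 ± 0.12 and 6.95 ± 0.38 (log2, SD, n = 4), a difference of 0.07 (95% interval -0.24 to 0.38, limma adjusted p = 0.766), and its acLDL arrays ranged from 6.53 to 7.39. Cxcl5 stood at 7.75 ± 0.25 and 7.64 ± 0.18 (log2, SD, n = 4), a difference of -0.11 (95% interval -0.36 to 0.14), and Cxcl3, below background, by 0.07. Cxcl15, a lung chemokine, fell by 0.28 from 4.55 ± 0.11 to 4.27 ± 0.10 (log2, SD, n = 4, limma adjusted p = 0.0136), far below the background level, and was at an adjusted p of 0.0784 without unloaded arrays 1 and 4.

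Cxcl10, induced by interferons and a ligand of Cxcr3, stood at 7.69 ± 0.17 and 7.93 ± 0.16 (log2, SD, n = 4). It did not pass (limma adjusted p = 0.0873), but did without unloaded array 1. Its relatives Cxcl9 and Cxcl11 were below background and differed by -0.13 and -0.14. Cxcl12 stood at 6.49 ± 0.07 and 6.53 ± 0.04 (log2, SD, n = 4), a difference of 0.04 (95% interval -0.09 to 0.17, limma adjusted p = 0.695). Cxcl17, of mucosal tissues, stood at 6.68 ± 0.16 and 6.61 ± 0.13 (log2, SD, n = 4), a difference of -0.07 (95% interval -0.26 to 0.12).

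Neither ligand of the remaining classes passed. Cx3cl1, the membrane-bound chemokine fractalkine, stood at 6.10 ± 0.17 and 6.34 ± 0.11 (log2, SD, n = 4), a difference of 0.24 (95% interval 0.05 to 0.43, limma adjusted p = 0.0603). It passed in 6 of the other settings, among them repeated quantile normalisation and cyclic loess. Xcl1, made by T and NK cells, was below background and differed by -0.06.

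Receptors changed in 2 of 18 genes, both downwards. Cxcr4, the receptor that holds cells at sources of Cxcl12, stood at 11.63, 11.64, 11.60 and 11.68 in unloaded arrays. In acLDL arrays it stood at 10.56, 10.59, 10.65 and 10.73. The nearest arrays of the groups lay 0.87 apart, against ranges of 0.08 within the unloaded and 0.17 within the acLDL arrays. The gene was 2.01-fold lower (95% interval 1.84 to 2.20, limma adjusted p = 1.74e-07).

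The 250 bases before the RefSeq start of Cxcr4 are shown as those of the member with the largest change (GRCm38.p6, chr1:128592300-128592549, minus strand, 5′ to 3′, capitals as above).
Cxcr4: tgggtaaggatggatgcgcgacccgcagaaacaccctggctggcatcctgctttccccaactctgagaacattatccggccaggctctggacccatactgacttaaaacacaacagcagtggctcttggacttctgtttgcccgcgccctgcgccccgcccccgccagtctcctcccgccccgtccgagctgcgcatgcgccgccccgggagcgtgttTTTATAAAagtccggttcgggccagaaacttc

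The only capitals are TATA box letters, overlapping on the 2 strands from 32 to 25 bases before the start. The window held 0 matches to the AP-1, response element, PU box or NF-kB letters.

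Cxcr1, a receptor best known from neutrophils, fell by 0.31 (1.24-fold). It stood at 7.42, 7.39, 7.34 and 7.29 in unloaded arrays and at 7.12, 7.07, 6.93 and 7.08 in acLDL arrays, without overlap (limma adjusted p = 0.00305). The neighbouring receptor gene Cxcr2 was below background, at 4.45 ± 0.31 and 4.22 ± 0.07 (log2, SD, n = 4), and did not pass (limma adjusted p = 0.192). Of 11 neutrophil markers 0 rose and 3 fell, namely Mmp8, Ly6g and Camp, and 2 lay above the background level, S100a8 and Csf3r. The calls are 27.3% of the 11, against 23.9% of all rows. Without unloaded array 1 or 4 or acLDL array 1 or 3 Mmp8 did not pass, and without acLDL array 4 neither Mmp8 nor Camp did. Ly6g and Camp did not pass without unloaded arrays 2 and 3 (limma adjusted p = 0.117 and 0.102). The mean over these markers was 5.53 to 5.62 in unloaded and 5.44 to 5.54 in acLDL arrays, and its part in the Cxcr1 value was not tested.

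None of the 10 CC receptors passed (0 by limma, 1 at an unadjusted p under 0.05), and 2 of them, Ccr1 and Ccr7, lay above the background level. Ccr1, the receptor that binds Ccl3, Ccl5, Ccl6 and Ccl9, stood at 7.31 ± 0.20 and 7.52 ± 0.18 (log2, SD, n = 4), a difference of 0.21 (95% interval -0.01 to 0.44, limma adjusted p = 0.168). Ccr7, which guides cells to lymph nodes, stood at 6.63 ± 0.28 and 6.53 ± 0.07 (log2, SD, n = 4), a difference of -0.10 (95% interval -0.34 to 0.14, limma adjusted p = 0.563). Ccr2, the receptor for Ccl2 and a marker of inflammatory monocytes, was below background at 4.40 ± 0.16 and 4.17 ± 0.07 (log2, SD, n = 4) and missed the threshold (limma adjusted p = 0.0513). It passed in 5 of 20 other settings, among them without unloaded array 3 (limma adjusted p = 0.00525). With all arrays kept it passed under a replicate block (0.0443), another variance prior (0.0370) and array weights (0.0386). The 8 CC receptors below background had group means from 4.17 (Ccr2) to 6.10 (Ccr10) and differences from -0.23 (Ccr2) to 0.15 (Ccr3).

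The other receptors above background were Cxcr3 and Cx3cr1. Cx3cr1, the fractalkine receptor of monocytes and many tissue macrophages, stood at 6.97 ± 0.19 and 6.75 ± 0.15 (log2, SD, n = 4), a difference of -0.22 (95% interval -0.43 to -0.01, limma adjusted p = 0.117). It passed without unloaded array 1. Cxcr3 stood at 6.44 ± 0.17 and 6.23 ± 0.19 (log2, SD, n = 4), a difference of -0.21 (95% interval -0.43 to 0.00, limma adjusted p = 0.147). Cxcr5 and Cxcr6, the receptors for Cxcl13 and Cxcl16, were below background and differed by 0.19 and -0.12, neither past the threshold (limma adjusted p = 0.0898 and 0.366). Cxcr5 passed as higher in 5 of 20 other settings, among them repeated quantile normalisation (adjusted p = 0.0201), cyclic loess (0.0279) and without unloaded array 3 (0.0387). Cxcr6 passed in 1, without unloaded arrays 1 and 4. Xcr1, the receptor for Xcl1, was below background and differed by 0.04.

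Unloaded arrays were not alike in all members. Ccr8, a receptor for Ccl1, stood at 4.10, 4.83, 4.83 and 4.02 in unloaded arrays 1 to 4, and Ccl19 at 7.35, 7.72, 7.79 and 7.28, so that arrays 1 and 4 were low and arrays 2 and 3 high. Ccr7 had the same pattern at 6.42, 6.86, 6.86 and 6.36. With unloaded arrays 1 and 4 left out, 21 members passed in place of 14, 8 of them higher and 13 lower. Over all rows 4882 passed in that setting, in place of 4965. Of the 21, 11 were among the 14 reported and 10 were gained, while Ccl24, Ccl25 and Cxcl15 were lost. The gained ones include Ccr8, Ccl19 and Ccr7. Since the pattern of these 3 genes chose the arrays left out, neither their own values without them nor the count that includes them is support for it. With arrays 2 and 3 left out 14 passed, 11 of them among the 14 reported. Cxcr4, Cxcr1, Cxcl13, Cxcl14, Cxcl16, Ccl5, Ccl9, Ccl6 and Ccl2 passed in both.

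A list of 4 genes outside the name pattern held the chemokines Pf4 and Ppbp, with Mif and Rarres2, which are not classed as chemokines. Of the 4 genes 2 rose, 1 fell and 1, Rarres2, did not pass. These calls are 75% of the 4, of which 2 lay above background. For comparison with this list and those below, 23.9% of all rows passed, and 4259 of the 12450 rows above background. Pf4, the platelet factor also made by macrophages, rose by 0.52, from 6.79 ± 0.16 to 7.32 ± 0.07, and Mif, a cytokine that can bind Cxcr4, rose by 0.38, from 9.61 ± 0.07 to 9.99 ± 0.04 (log2, SD, n = 4). Ppbp, a platelet chemokine below background, fell by 0.19, a call lost in 11 of 20 other settings, among them those without each array other than unloaded array 4 (adjusted p up to 0.138).

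A mixed list of 12 genes held the atypical receptors Ackr1 to Ackr4 beside chemokine-binding, chemokine-like and other genes. Of the 12, 2 rose, 4 fell and 6 did not pass, with a median difference of -0.05. None of Ackr1 to Ackr4 passed (limma adjusted p = 0.231, 0.573, 0.817 and 0.730). Above background were 9 of the 12, and 50% of the 12 passed. Cmklr1, the receptor for the attractant chemerin, rose by 0.89, from 7.12 ± 0.16 to 8.01 ± 0.06 (log2, SD, n = 4, limma adjusted p = 5.16e-06). Ccrl2, which binds chemerin without signalling, fell by 0.41, from 9.76 ± 0.07 to 9.35 ± 0.07 (log2, SD, n = 4, limma adjusted p = 0.000407). Cmtm7, of a family of chemokine-like membrane proteins, rose by 0.60 and the proteoglycan gene Sdc1 fell by 0.35. Ackr3, the scavenging receptor for Cxcl12, was below background and differed by 0.04.

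Of 31 measured genes of signalling and desensitisation behind these receptors 10 rose, 3 fell and 18 did not pass, with a median difference of 0.09. All 31 lay above background, and 41.9% passed, against 23.9% of all rows and 4259 of the 12450 rows above background. Gnb2, a G protein beta subunit, and Rac2, a small GTPase of leukocyte movement, each rose by 0.56. Rap1a, a small GTPase of integrin activation, fell by 0.60, and Gnai3, an inhibitory G protein alpha subunit, fell by 0.55. Among 16 proteases that trim or shed chemokines 1 rose, 5 fell and 10 did not pass (37.5% passed), with a median of -0.10. Mmp9, a gelatinase, rose by 0.91, Mmp14, a membrane protease, fell by 0.53 and Adam10 by 0.31. Mmp8, below background, fell by 0.37, a call lost in 8 of 20 other settings, among them those without unloaded array 1 or 4 or acLDL array 1, 3 or 4 (adjusted p up to 0.265).

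Genes upstream of chemokines were taken from lists of factors and of cytokines. Of 30 measured transcription factor and signal genes 12 rose, 4 fell and 14 did not pass, with a median of 0.16. Above background were 29 of the 30, and 53.3% of the 30 passed. Of all rows 23.9% passed, and of the 12450 rows above background 4259. Irf7 and Fos rose by 0.60 each and Irf5 by 0.53, while Tbk1, a kinase of the interferon pathway, fell by 0.52. Of 14 cytokine genes 3 rose, 2 fell and 9 did not pass (35.7% passed), with a median of -0.07. Il1a rose by 1.14, from 7.04 ± 0.16 to 8.17 ± 0.19, and Tnf by 0.51, from 8.59 ± 0.14 to 9.11 ± 0.06 (log2, SD, n = 4). Il33 and Il6, below background, fell by 0.32 and 0.21, and both missed the threshold when acLDL array 1 was dropped (adjusted p = 0.0520 and 0.0558). Il6 also missed it without unloaded array 1 or 2, without acLDL array 2 or 4 and in 2 more settings (adjusted p up to 0.103).

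Markers of macrophages were all above background (10 of 10), and 6 rose, 1 fell and 3 did not pass. The calls are 70% of the 10, against 23.9% of all rows and 4259 of the 12450 rows above background. Fcgr1, Itgam, Adgre1 and Msr1 rose by 0.71, 0.63, 0.59 and 0.56, and Cd14 fell by 0.33. Cd68, Csf1r and Lyz2 did not pass and differed by -0.09, 0 and 0.06. The mean over the 10 markers was 10.19 to 10.33 in unloaded and 10.50 to 10.56 in acLDL arrays. Markers of fibroblasts and mesothelium, other cells that can make Cxcl14, Cxcl12 and Ccl11, lay above background in 10 of 12 genes, all but Lum and Msln. Of these 12 markers 1 rose, 2 fell and 9 did not pass (25% passed, against 23.9% of all rows). Their mean was 8.0 to 8.16 in unloaded and 7.98 to 8.1 in acLDL arrays. Sparc rose by 0.30, Col1a2 and Dcn fell by 0.37 and 0.26. Sparc missed the threshold without unloaded arrays 2 and 3 (limma adjusted p = 0.117). Dcn missed the threshold without unloaded array 4, acLDL array 3 or acLDL array 4 (adjusted p up to 0.155 over all settings), and the part of such cells in the chemokine values was not tested.

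Markers of T cells, a known source of Ccl5 and Xcl1, were past the threshold in 0 of 8 genes (0 also at an unadjusted p under 0.05), and 3 of 8 were above background. Their mean was 5.73 to 5.93 in unloaded and 5.73 to 5.84 in acLDL arrays. Of 6 NK cell markers 1, Klrd1, fell, at levels below background, and 1 other, Prf1, was above background. Siglecf fell by 0.60 among 5 eosinophil markers, the other 4 being below background. Of 7 B cell markers Blk fell by 0.30, and of 7 mast cell markers Cma1 and Mrgprb1, both below background, fell by 0.27 and 0.25. Of 6 dendritic cell markers 0 passed by limma (1 at an unadjusted p under 0.05). Among the marker lists of this paragraph 0% (T cell and dendritic cell) to 28.6% (mast cell) passed, against 23.9% of all rows. Blk missed the threshold without unloaded array 3 or 4 or acLDL array 2 or 4, Klrd1 without unloaded array 3 or acLDL array 1, 2 or 4, and Mrgprb1 without unloaded array 4 or acLDL array 1 (adjusted p up to 0.111, 0.0631 and 0.0748). The part of these cells in the chemokine values was not tested.

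**Figure D4:**
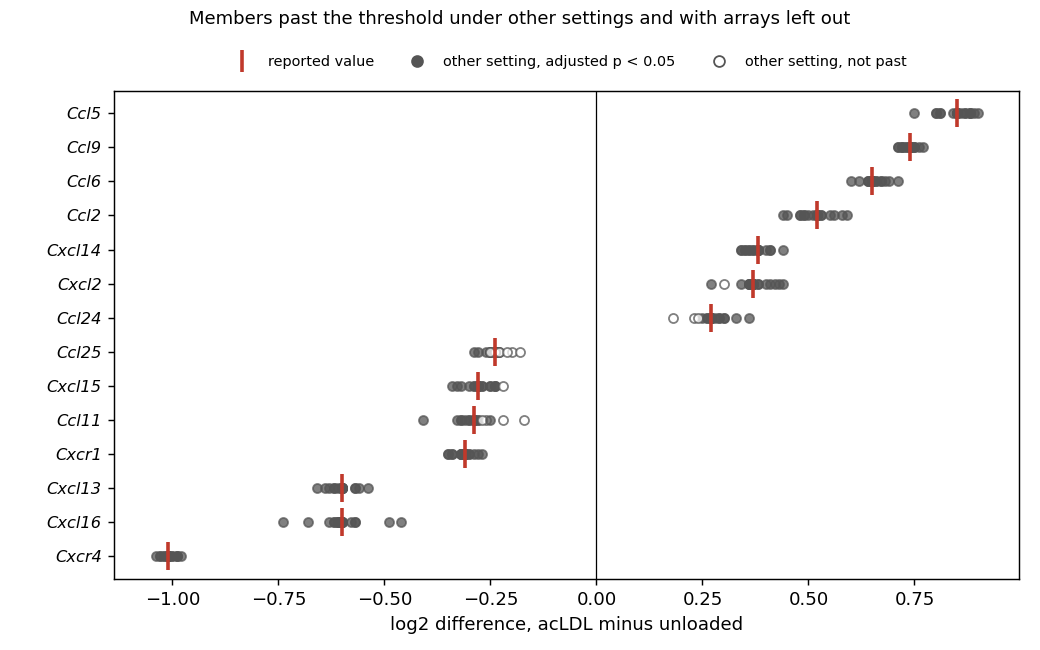
Log2 difference of the 14 members past the threshold as reported (red bar) and under up to 21 other settings (20 for Ccl24 and Cxcl15, left out where only brighter rows were fitted), each a grey circle, open where the adjusted p was not under 0.05. No point crosses 0, and Ccl25, Ccl11, Ccl24, Cxcl15 and Cxcl2 have open circles.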

How the data were processed

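Biotin-labelled RNA of 8 cultures was read on Affymetrix arrays, according to the labels' protocols. The deposited values are log2 expression levels, for which the submitters' processing notes name RMA, a method that removes background, gives the arrays one distribution and understates differences of dim genes. Its version and settings were not given in the sources used here. Each array took its group and number from its own label.

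Of 35557 probe sets, 23410 had gene symbols. A gene was represented by its probe set of highest mean, and probe sets with several symbols formed 798 rows of their own beside 19938 genes. Differences (acLDL minus unloaded) were fitted with lmFit and eBayes of limma 3.58.1 under R 4.3.3 (two-sided, Benjamini-Hochberg over 20736 rows, threshold 0.05), which was tested on simulated data. Standard deviations are between arrays, intervals are for single genes, and the number of arrays limits precision. Figures used matplotlib 3.10.9.

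The members, lists and alternatives were chosen with earlier results of these data known. Members past the threshold and above background in at least 1 group were given with every array. Dim ones past it were given with their difference, brighter ones not past it with group means. Other dim ones were given by counts and range or singly. At most 4 changed genes per list were named, and Cd14 besides. Alternatives were a replicate block, other choices of rows and normalisation, another variance prior, array weights and arrays left out. Centring on the median of all deposited probe sets was added after seeing the data.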

Additional observations from a re-analysis of the deposited data

Results flagged for a closer look

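In groups of 4 arrays, single values that stood far from the other 3 were sought for 89 genes. These were the 52 members and 37 genes named as changed from the lists, Cd14 not among them. Chance alone sets such a value apart in about 1 in 20 groups, and 7 of 178 groups had one.

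Among the members, Ccl5 stood at 8.78 in acLDL array 4, against 8.37 to 8.42 in the other acLDL arrays. Ccl8, below background, stood at 4.95 in acLDL array 3, against 4.55 to 4.61. Ccr2, also below background, stood at 4.17 in unloaded array 3, against 4.45 to 4.50. It passed the threshold without this array, and also with all arrays kept under a replicate block, another variance prior or array weights.

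Among genes of the lists, Il1a stood at 7.89 in acLDL array 4, against 8.24 to 8.30, and Gnai3 at 10.16 in acLDL array 1, against 10.09 to 10.10. Blk stood at 6.38 in unloaded array 3, against 6.11 to 6.16, and Cma1 at 5.68 in unloaded array 1, against 5.81 to 5.82. Without unloaded array 3 the adjusted p of Blk was 0.0765.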

How the results depend on the processing

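Of the 14 members past the threshold, 9 passed in each of the 21 other settings run, namely Ccl2, Ccl5, Ccl6, Ccl9, Cxcl13, Cxcl14, Cxcl16, Cxcr1 and Cxcr4. The other 5, Ccl11, Ccl24, Ccl25, Cxcl15 and Cxcl2, did not pass in some, and 15 of the 38 members below the threshold passed in at least 1. No call changed sign (0 cases), and 10 of these 38 had values on both sides of 0 over the settings. Dropping single arrays gave 11 to 18 members past the threshold and 5 to 6 of at least 1.5-fold. The latter was 4 with arrays centred on the median of all deposited probe sets, when Cxcl13 and Cxcl16 were not among them. Of 37 list genes named as changed, 26 passed in every setting, and Cd14 was not followed over the settings.

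With a replicate block 17 members passed, the 14 reported and Ccr2, Cx3cr1 and Cxcr3. Deviations of same-numbered arrays correlated at 0.11, -0.16, 0.30 and 0.14, 1 of 4 unloaded arrays was closest to its own number, and the labels tie the numbers to no mouse or day. Signal over background limits the 25 members below 6.12, whose differences may be understated.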
